A study of Mus musculus with 16 samples.

Results

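Odorant receptor genes lie in clusters, and mouse chromosome 2 holds a large one. The receptors described here are those at its beginning, the genes whose symbol is Olfr followed by a number from 987 to 1099. The arrays measured 71 of them, among 1091 Olfr genes and 19505 genes in all. The RefSeq gene table lists 107 genes in this number range, 73 protein coding and 34 pseudogenes, and the 71 measured were all listed as protein coding and on chromosome 2. Their order by number is their order along the chromosome. Each was measured by 1 probe set.

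The samples were GFP+ and GFP- cells, separated by fluorescence-activated sorting of olfactory mucosa (S100a5-tauGFP mice), from animals that had breathed octanol (an alcohol with 8 carbons, used here as an odour) or vehicle (filtered air). All 24 mice, of both sexes and 7 to 12 weeks old, carried the reporter and spent 40 h alone in a clean air chamber with a flow of 3.1 L/min. From 26 h on, a stimulus of 10 s came every 20 min. The 4 groups are the GFP+ cells and the GFP- cells of octanol mice and the same 2 fractions of vehicle mice, each with 4 Clariom S arrays, and each array holds RNA of a pool of 3 mice. The pools are numbered 1 to 4 within an exposure, and arrays of both fractions that share an exposure and a number were taken as the same mice.

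A mature olfactory sensory neuron expresses 1 allele of 1 odorant receptor gene, so the amount of a receptor's mRNA in a tissue follows how many neurons chose that receptor and how much mRNA each of them holds. S100a5 encodes a calcium-binding protein whose expression in olfactory sensory neurons depends on activity, and a green fluorescent protein under its control marks neurons that have been active. Receptors are grouped into families by sequence, named here by the number of their MOR synonym (MOR185 and so on). Of the 71, 4 have MOR synonyms of different families (Olfr1034, Olfr1036, Olfr1037 and Olfr1066) and are left out of the family counts. A MOR synonym carries a pseudogene mark for 9 of the 71, Olfr1037 and Olfr1082 among them, although all are listed as protein coding. Neurons that bear different receptors differ in which odours they answer. In these bulk samples, fewer cells with a receptor and less of its RNA per cell cannot be told apart.

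Values are log2 signals as deposited. Differences are GFP+ minus GFP- within pools, or octanol minus vehicle, on the log2 scale, with the standard error (SE) of the limma fit, and a gene is called higher or lower where the limma p, adjusted over all 19505 genes with the Benjamini-Hochberg method, was under 0.05. The background level, the 95th percentile of the mean signals of 321 vomeronasal receptor genes, was 6.32 log2. Of the 71 receptors, 61 had a mean over the 16 arrays above it (85.9%), against 932 of the 1020 other receptors (91.4%). The signal was above background on all 16 arrays for 51 of the 71 and on none of the 16 for 4. The means ran from 4.10 (Olfr1061) to 13.70 (Olfr1016), with a median of 9.41. A signal depends on its probes, so signals of different receptors are not compared.

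The GFP+ arrays had lower signals of other cell types than the GFP- arrays. S100a5 itself was higher in GFP+ cells by 0.86 after octanol and by 0.82 after vehicle. The 7 markers of mature sensory neurons summed to 20.4 to 20.5 log2 on GFP+ arrays and to 20.3 to 20.4 on GFP- arrays of either exposure, and 2 of 7 were called higher after each. The 5 immature neuron markers, the 4 progenitor markers measured and the 5 myeloid and neutrophil markers were all called lower in GFP+ cells after both exposures, as were 2 of 3 sustentacular (supporting cell) markers. The myeloid and neutrophil markers summed to 10.7 to 12.8 log2 in octanol GFP+, against 17.8 to 18.6 in octanol GFP-, and to 10.6 to 10.9 in vehicle GFP+, against 17.4 to 18.1 in vehicle GFP-. The immature markers summed to 15.4 to 15.6 in octanol GFP+, against 15.98 to 16.5 in octanol GFP-, and to 15.2 to 15.5 in vehicle GFP+, against 16.3 to 16.6 in vehicle GFP-. The progenitor markers summed to 8.01 to 8.49 in octanol GFP+, against 11.6 to 12.99 in octanol GFP-, and to 7.91 to 8.20 in vehicle GFP+, against 11.3 to 12.8 in vehicle GFP-, and 3 of the 4 were under background in octanol GFP+. The sustentacular markers summed to 14.4 to 15.8 in octanol GFP+, against 15.4 to 16.03 in octanol GFP-, and to 14.4 to 15.2 in vehicle GFP+, against 15.6 to 15.96 in vehicle GFP-. Dorsal and ventral zone markers (2 and 1 genes) were not called in either comparison. The part that these other cells have in the receptor differences below was not tested.

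The region upstream of a receptor gene is short, and binding sites for EBF factors and for homeodomain factors such as LHX2 and EMX2 are the elements known there. RefSeq's table of GRCm38.p6 holds 49 of the 71, but 33 of these models begin at the coding start. Windows of the 250 bases before the gene's listed start were therefore read for the 16 others. Some of these 16 models are short, such as 943 bases for Olfr1053 and 992 for Olfr1065, so a listed start can lie near the coding start. Whether the listed starts are transcription starts was not tested. Over all 120 pairs of these windows, globally aligned, the median identity was 52.3%. A pair of neighbours stood highest, Olfr1034 and Olfr1036 at 92.5%, followed by Olfr1080 and Olfr1082, also neighbours, at 86.7%, and the third pair was at 56.3%. The windows below are shown because they belong to these pairs of near copies and to the receptors with the largest difference after octanol on the higher side (Olfr1093) and on the lower side (Olfr1030). Capitals mark matches to CCCNNGGG (EBF type), TAATTA or TAATGA (homeodomain type) on either strand, so that TAATGA on the other strand reads TCATTA.
Olfr1034, chr2:86046194-86046443, plus strand: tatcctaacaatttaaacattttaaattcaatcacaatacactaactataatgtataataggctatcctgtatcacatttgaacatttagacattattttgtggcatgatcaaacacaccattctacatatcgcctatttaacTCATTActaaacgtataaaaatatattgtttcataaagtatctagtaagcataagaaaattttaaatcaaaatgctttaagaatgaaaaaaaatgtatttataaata
Olfr1036, chr2:86074454-86074703, plus strand: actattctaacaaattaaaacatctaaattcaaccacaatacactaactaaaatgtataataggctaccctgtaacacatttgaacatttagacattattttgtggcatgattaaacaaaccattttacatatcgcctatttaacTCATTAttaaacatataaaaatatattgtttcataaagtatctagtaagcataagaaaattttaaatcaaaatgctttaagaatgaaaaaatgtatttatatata
Olfr1080, chr2:86558139-86558388, minus strand: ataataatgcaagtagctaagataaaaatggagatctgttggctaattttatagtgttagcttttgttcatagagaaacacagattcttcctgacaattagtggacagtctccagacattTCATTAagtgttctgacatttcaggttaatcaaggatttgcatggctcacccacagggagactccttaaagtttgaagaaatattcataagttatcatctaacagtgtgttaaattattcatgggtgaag
Olfr1082, chr2:86598810-86599059, minus strand: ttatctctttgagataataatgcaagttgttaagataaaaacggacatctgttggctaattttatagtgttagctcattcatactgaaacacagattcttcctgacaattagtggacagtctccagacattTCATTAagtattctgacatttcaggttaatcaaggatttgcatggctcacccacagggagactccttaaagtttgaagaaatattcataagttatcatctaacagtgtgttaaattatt
Olfr1093, chr2:86782295-86782544, plus strand: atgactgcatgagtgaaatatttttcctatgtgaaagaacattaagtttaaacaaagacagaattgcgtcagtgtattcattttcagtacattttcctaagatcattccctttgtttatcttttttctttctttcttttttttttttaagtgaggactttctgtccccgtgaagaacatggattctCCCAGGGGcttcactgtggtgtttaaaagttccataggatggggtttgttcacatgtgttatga
Olfr1030, chr2:85979062-85979311, plus strand: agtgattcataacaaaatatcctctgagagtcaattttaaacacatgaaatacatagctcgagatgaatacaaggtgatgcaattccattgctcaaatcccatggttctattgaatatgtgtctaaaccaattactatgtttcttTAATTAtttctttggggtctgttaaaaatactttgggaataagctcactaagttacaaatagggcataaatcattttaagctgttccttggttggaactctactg

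The capitals in Olfr1034 and Olfr1036 lie 107 and 105 bases before the start, and those in Olfr1080 and Olfr1082 lie 130 and 119 bases before it. Olfr1093 holds the 1 match to CCCNNGGG found in the 16 windows (6.25%), at 64 bases before the start, against 6.70% of 239 such windows of other receptors and 12.2% of 30936 windows of all genes. TAATTA occurred in 5 of 16 windows (31.2%), against 16.3% of other receptors and 4.43% of all genes. TAATGA occurred in 6 of 16 (37.5%), against 31.4% and 8.19%. These 6 include Olfr1034, Olfr1036, Olfr1080 and Olfr1082, so near copies were counted as separate windows, here and in the counts that follow. Either homeodomain motif occurred in 10 of 16 (62.5%), against 42.3% of other receptors and 11.8% of all genes. Among the receptors called higher after octanol 7 of 12 windows held one, and among those not called 2 of 3 did. Olfr1030 was the 1 receptor called lower with a window, and it holds TAATTA at 105 bases before the start, so windows of higher and lower receptors could not be set against each other.

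After octanol, most of these receptors were more abundant in the GFP+ cells. Of the 71, 47 were called higher in GFP+ (66.2%) and 10 lower (14.1%), and 14 were not called. Over all genes tested, 16.7% were called higher and 13.2% lower, and among the 1020 other receptors 467 were higher (45.8%) and 226 lower (22.2%). The median difference was 1.38 for the 71, 0.55 for the other receptors and 0.14 for all genes. For the 171 receptors that follow on chromosome 2 with higher Olfr numbers, 78 were higher and 46 lower, with a median of 0.24. In each of the 57 called receptors the 4 pools went the same way, as they did in 62 of the 71.

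After vehicle, in other mice, the direction of each difference was the same. There 40 were called higher in GFP+ (56.3%), 11 lower (15.5%) and 20 not called, where 14.7% of all genes tested were higher and 13.5% lower. The 4 pools went the same way in 48 of the 51 called receptors and in 53 of the 71, and Olfr1019, Olfr1043 and Olfr1058 were called with 3 of 4 pools alike. Among the other receptors 430 were higher and 243 lower, and the median difference was 0.94 for the 71, 0.41 for the other receptors and 0.13 for all genes. Taking the exposures side by side, 39 receptors were called higher and 9 lower each time, 11 were called neither time, and 0 were called in opposite directions. The sign of the difference was the same after octanol and after vehicle in 71 of 71, and across these genes, which share arrays and are not independent, Pearson's r was 0.988 and Spearman's rho 0.982. Of the remaining calls, 8 higher and 1 lower were made after octanol alone, and 1 higher and 2 lower after vehicle alone. The change of these differences with octanol was tested and is given further on.

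**Figure D1:**
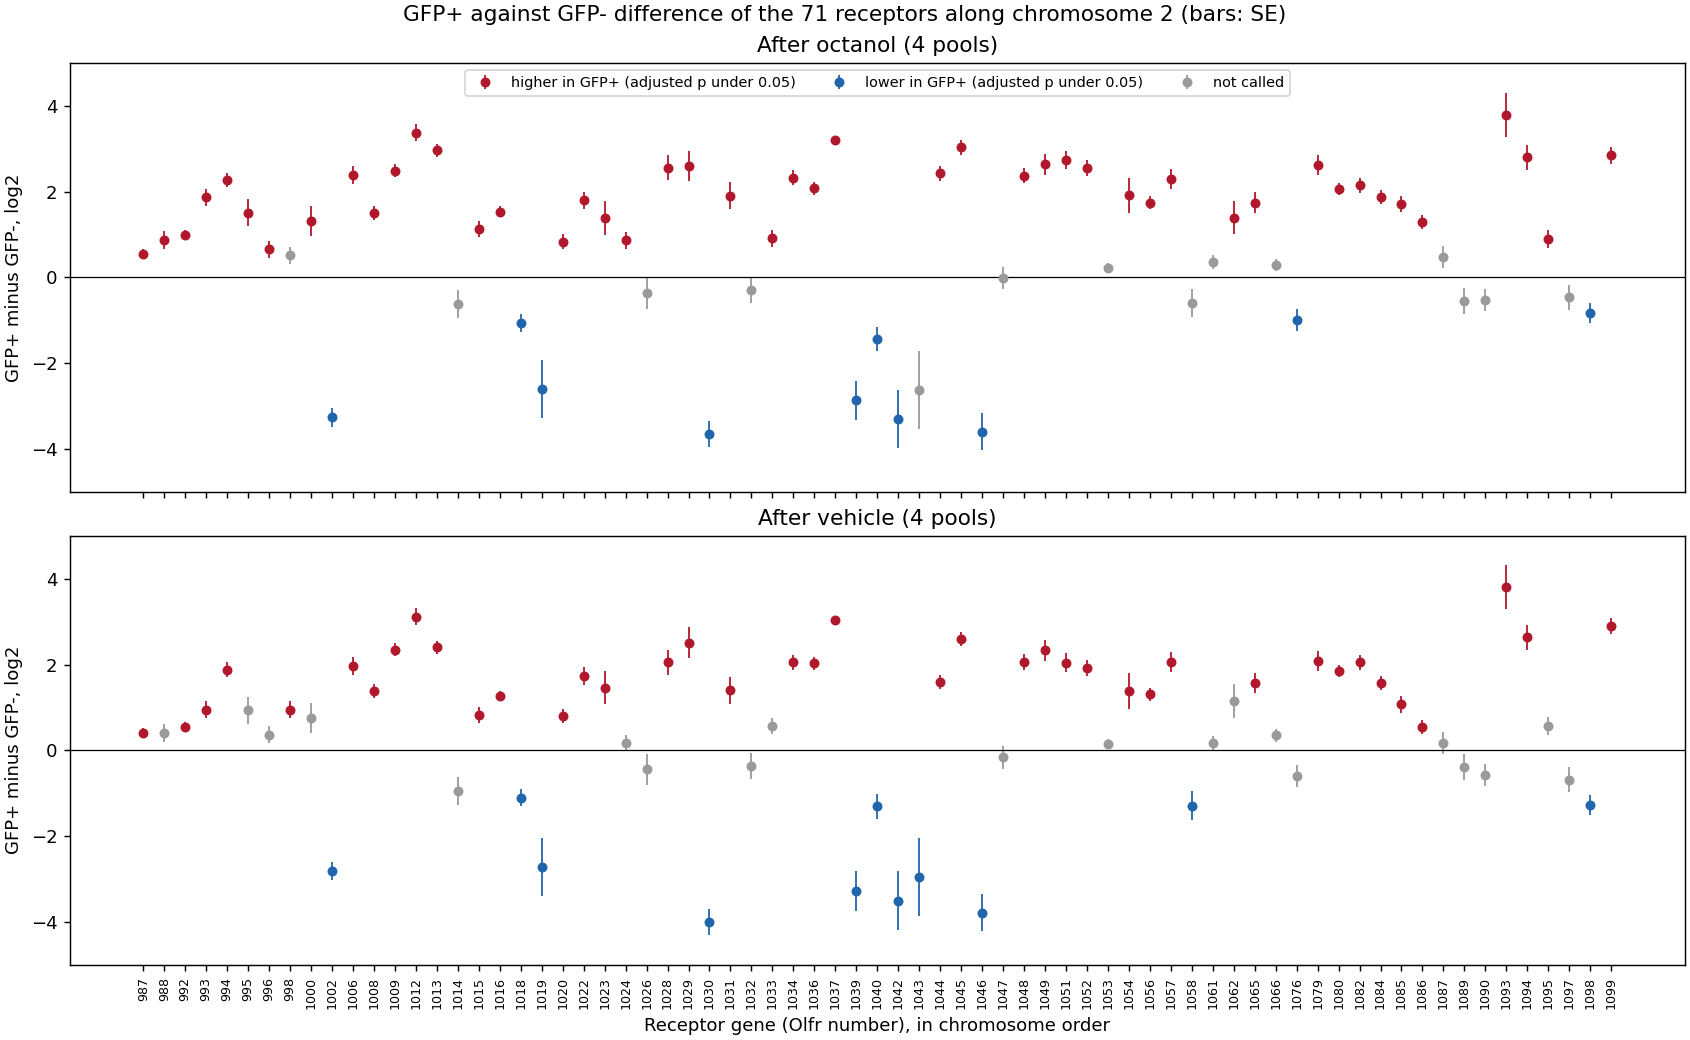
GFP+ minus GFP- difference (log2, points, with SE bars) of each of the 71 receptors in chromosome order, after octanol (top) and after vehicle (bottom), 4 pools each; colour gives the limma call. Receptors lower in GFP+ lie scattered along the order, and Olfr1039 to Olfr1043 form the longest run of lower ones after vehicle.

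**Figure D2:**
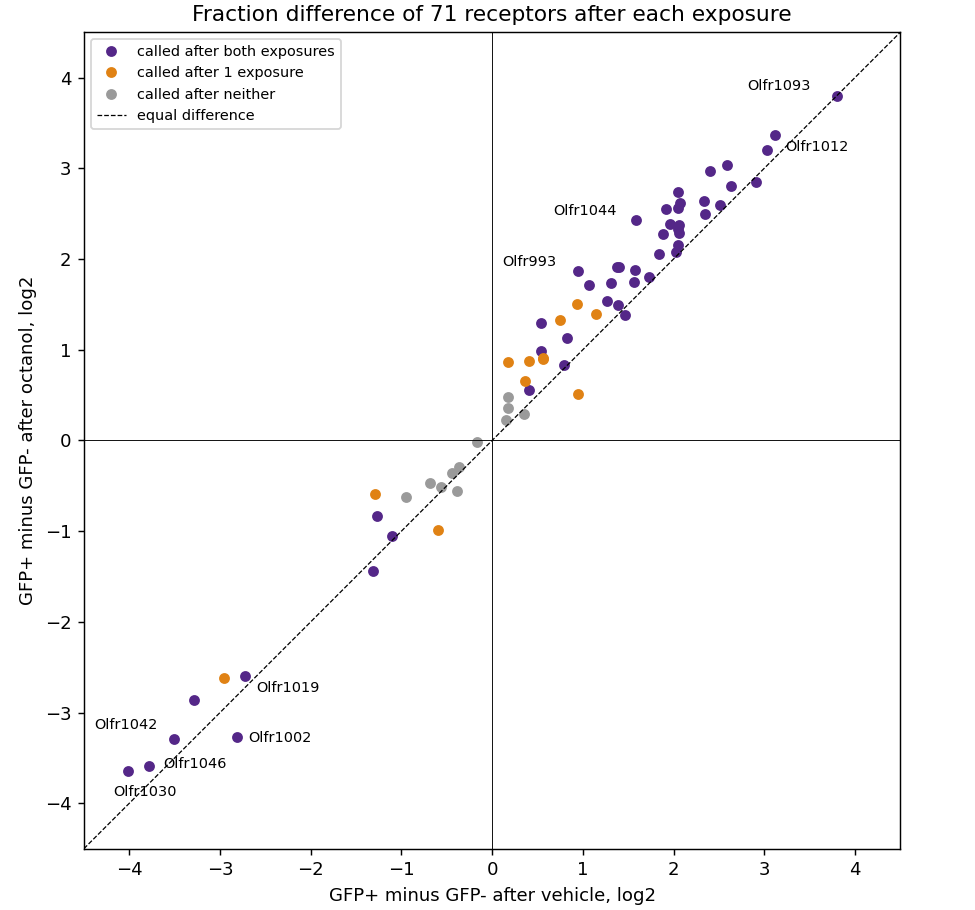
GFP+ minus GFP- difference (log2) after octanol (y axis) against that after vehicle (x axis), 1 point per receptor, coloured by how many exposures gave a call; the dashed line marks equal differences. All 71 points have the same sign on both axes, and 62 lie above the line.

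Olfr1093 (MOR179) had the largest difference on the higher side. Its signals were 11.30, 10.80, 10.76 and 11.05 in octanol GFP+, against 6.38, 9.04, 5.87 and 7.43 in octanol GFP-. In vehicle GFP+ they were 11.33, 10.64, 10.84 and 10.58, against 6.19, 7.88, 6.74 and 7.35 in vehicle GFP-. The groups did not overlap, the GFP- signals reached down to the background level, and the differences were 3.80 ± 0.51 after octanol (limma adjusted p = 0.000353) and 3.81 ± 0.51 after vehicle (limma adjusted p = 0.000349), at least 12.9-fold and at least 13.7-fold with the 1 array under background in each GFP- group raised to it. The same family holds its neighbour Olfr1094, with differences of 2.80 ± 0.29 and 2.63 ± 0.29, and Olfr1095, whose signals lay between 4.83 and 6.58 on all arrays and which was called after octanol (0.90 ± 0.21, limma adjusted p = 0.0112, and 0.0536 without octanol pool 4) and not after vehicle (0.57 ± 0.21, limma adjusted p = 0.0755).

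Olfr1012 (MOR213) stood at 12.62, 12.05, 11.97 and 11.98 in octanol GFP+, against 9.10, 7.98, 8.96 and 9.09 in octanol GFP-. After vehicle it stood at 11.80, 11.76, 11.80 and 12.05 in GFP+, against 8.21, 8.57, 8.81 and 9.35 in GFP-. Every GFP+ array was above every GFP- array, with differences of 3.37 ± 0.20 after octanol and 3.12 ± 0.20 after vehicle. Its neighbour and family member Olfr1013 differed by 2.97 ± 0.15 after octanol and 2.40 ± 0.15 after vehicle.

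Olfr1037 was the receptor with the smallest limma adjusted p of the 71, 6.38e-08 after octanol and 6.69e-08 after vehicle. It gave 13.89, 13.55, 13.80 and 13.19 in octanol GFP+, against 10.86, 10.39, 10.46 and 9.94 in octanol GFP-. In vehicle GFP+ it gave 13.75, 13.67, 13.56 and 13.34, against 10.98, 10.47, 10.41 and 10.35 in vehicle GFP-. The pools were alike, with differences of 3.03 to 3.34 after octanol and 2.77 to 3.21 after vehicle, and the fitted values were 3.20 ± 0.11 and 3.03 ± 0.11, a 9.17-fold and an 8.16-fold difference.

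The pairs of near-copy upstream windows, each made of neighbours, had like differences. Differences of this size were not confined to them. Olfr1006, whose window matched no other by more than 55.0%, was higher by 2.39 ± 0.21 after octanol and by 1.96 ± 0.21 after vehicle. Whether likeness of windows bears on the differences was not tested. Olfr1034 was higher in GFP+ by 2.33 ± 0.17 after octanol and by 2.05 ± 0.17 after vehicle, and Olfr1036 by 2.08 ± 0.15 and by 2.02 ± 0.15. Olfr1080 (MOR192) was higher by 2.06 ± 0.14 and by 1.85 ± 0.14, and Olfr1082 (MOR192) by 2.15 ± 0.17 and by 2.05 ± 0.17. Their neighbour Olfr1084, the third member of MOR192, was higher by 1.88 ± 0.16 after octanol and by 1.58 ± 0.16 after vehicle. Whether a probe set reads its near copy as well was not tested. The other receptors of large difference were Olfr1045 (3.03 ± 0.16 after octanol, 2.59 ± 0.16 after vehicle) and Olfr1099 (2.85 ± 0.19 and 2.90 ± 0.19), and the next were Olfr1051 (2.74 ± 0.22 and 2.05 ± 0.22) and Olfr1049 (2.64 ± 0.25 and 2.33 ± 0.25). Olfr1079 (2.62 ± 0.24 and 2.08 ± 0.24), Olfr1029 (2.60 ± 0.36 and 2.51 ± 0.36) and Olfr1028 (2.56 ± 0.29 and 2.05 ± 0.29) followed.

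The lower receptors reached the same size in the opposite direction. Olfr1030 (MOR196) had 8.74, 9.05, 9.55 and 8.98 in octanol GFP+, against 12.45, 12.57, 13.30 and 12.56 in octanol GFP-. It had 8.04, 9.94, 8.70 and 8.91 in vehicle GFP+, against 13.11, 12.54, 13.17 and 12.83 in vehicle GFP-. The fractions did not overlap, and the receptor was lower in GFP+ by 12.5-fold after octanol (difference -3.64 ± 0.30, limma adjusted p = 1.18e-05) and by 16.1-fold after vehicle (-4.01 ± 0.30, limma adjusted p = 6.09e-06). Its neighbours Olfr1029 and Olfr1031 were called higher after both exposures, Olfr1031 by 1.91 ± 0.31 after octanol and by 1.40 ± 0.31 after vehicle.

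Olfr1046 (MOR194) had 8.43, 8.77, 9.40 and 8.38 in octanol GFP+, against 12.17, 12.21, 12.51 and 12.44 in octanol GFP-. It had 7.75, 10.88, 8.10 and 7.97 in vehicle GFP+, against 12.48, 12.47, 12.49 and 12.39 in vehicle GFP-. The GFP- arrays were close together, and in vehicle GFP+ the array of pool 2 stood well above the other 3. The differences were -3.59 ± 0.43 (limma adjusted p = 0.000157) and -3.78 ± 0.43 (limma adjusted p = 0.000110).

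Olfr1002 (MOR175) had 6.47, 5.95, 5.63 and 6.20 in octanol GFP+, against 9.87, 9.34, 9.30 and 8.78 in octanol GFP-. It had 6.55, 7.11, 7.55 and 6.48 in vehicle GFP+, against 9.87, 9.87, 9.62 and 9.57 in vehicle GFP-. Of the octanol GFP+ arrays, 3 were under background and the 4 vehicle GFP+ arrays were above it. The receptor was at least 7.84-fold lower in octanol GFP+ than in octanol GFP- (difference -3.26 ± 0.22) and 7.02-fold lower after vehicle (-2.81 ± 0.22).

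Olfr1019 (MOR180), a receptor known in mice to respond to trimethylthiazoline, a compound of fox odour, had 10.32, 11.17, 10.51 and 8.56 in octanol GFP+, against 12.48, 12.39, 12.97 and 13.11 in octanol GFP-. It had 9.33, 12.82, 9.66 and 8.61 in vehicle GFP+, against 13.28, 12.65, 12.95 and 12.41 in vehicle GFP-. After octanol the fractions did not overlap, and after vehicle the GFP+ array of pool 2 lay among the GFP- arrays. The receptor was called lower after octanol (-2.60 ± 0.67, limma adjusted p = 0.0164) and after vehicle (-2.72 ± 0.67, limma adjusted p = 0.0136), but neither call held with a trended and robust variance (limma adjusted p = 0.0562 and 0.0512). The call after octanol was also lost without octanol pool 4 (limma adjusted p = 0.0750), and that after vehicle without vehicle pool 1, 3 or 4 (0.0656, 0.0585 and 0.0617).

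**Figure D3:**
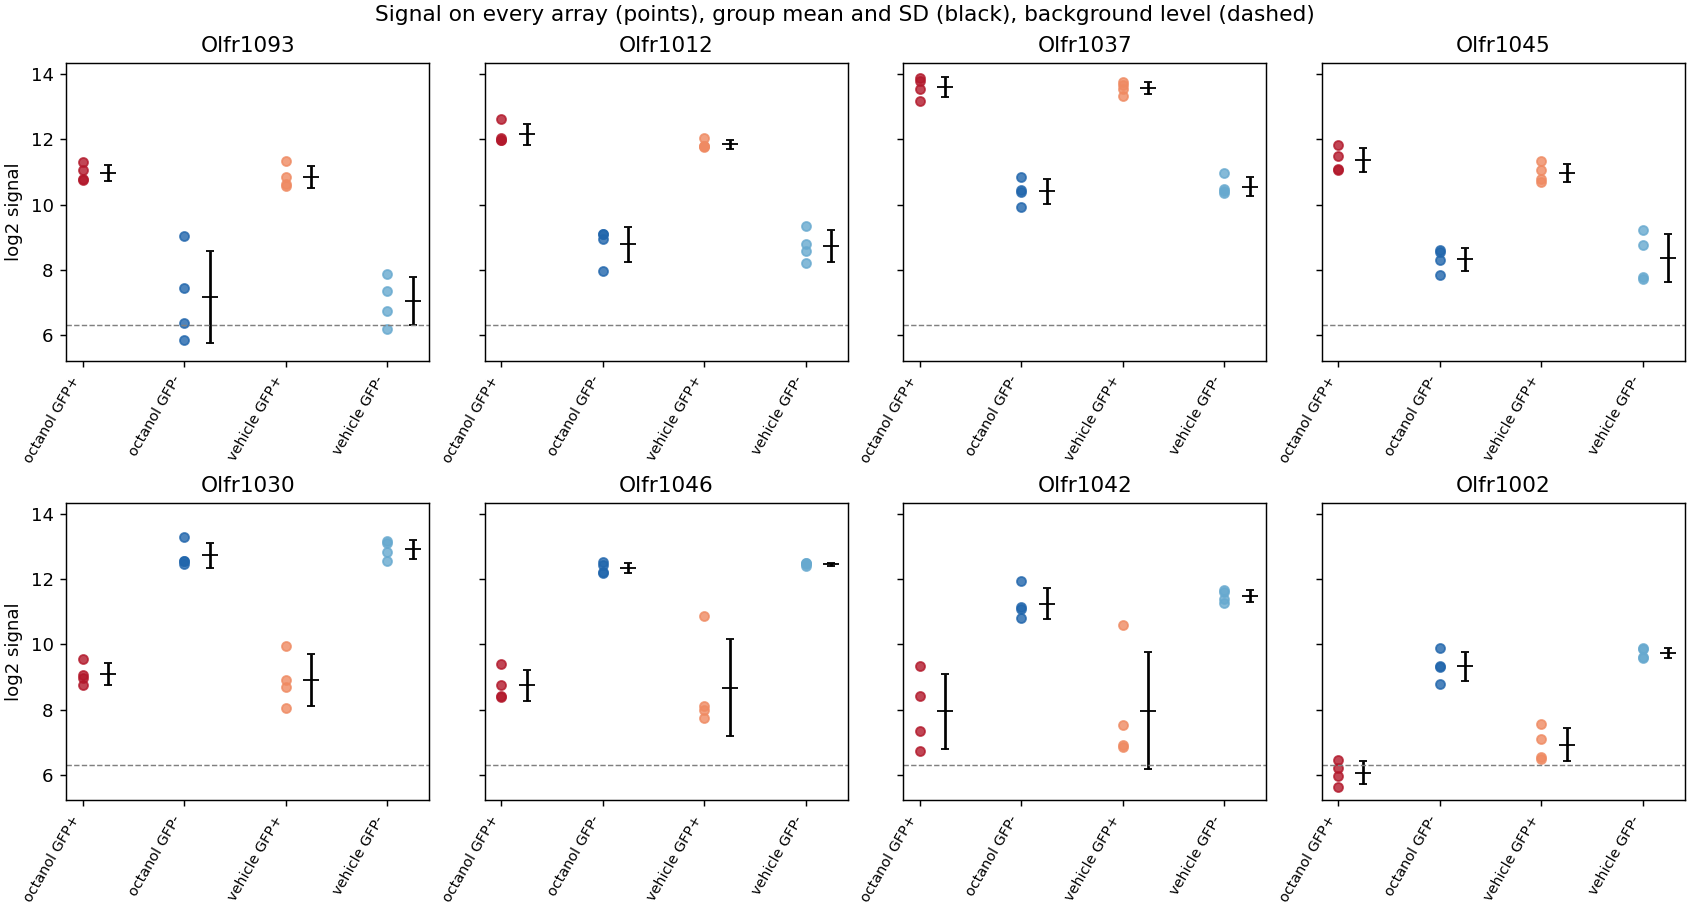
Log2 signal on each array (points), group mean and SD (black, n = 4) of 4 receptors higher in GFP+ (top row) and 4 lower in GFP+ (bottom row); the dashed line is the background level of 6.32. In 1 of the vehicle GFP+ arrays, that of pool 2, Olfr1046 stands at 10.88 and Olfr1042 at 10.60, above the other 3.

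That array stood apart for many of the lower receptors. Over the 10 called lower after octanol, vehicle GFP+ pool 2 deviated from the mean of the other 3 vehicle GFP+ arrays by a median of 1.23, and 10 of 10 were above. The deviation was 3.62 for Olfr1019, 3.51 for Olfr1042, 2.94 for Olfr1046 and 2.06 for Olfr1039, the 4 above 1.5, and it was 0.04 for Olfr1040. For the 226 other receptors called lower after octanol the median deviation of the same array was -0.01, and 32 of them lay above 1.5, of which 2 belong to the higher-numbered receptors of chromosome 2. For the 47 receptors called higher after octanol it was 0.12. The octanol GFP+ array with the same number, from other mice, deviated by 1.83 for Olfr1042 and 1.38 for Olfr1019, and by a median of 0.22 over the 10. Without vehicle pool 2 the counts after vehicle were again 40 higher and 11 lower, though not of the same receptors. Among the named receptors, Olfr987, Olfr1023, Olfr1058 and Olfr1086 lost the call (limma adjusted p = 0.0624, 0.0824, 0.0655 and 0.0559). Olfr988 and Olfr1066 gained it (limma adjusted p = 0.0154 and 0.0146). Without this pool the difference of Olfr1019 was -3.68, of Olfr1042 -4.45, of Olfr1046 -4.51 and of Olfr1043 -4.28.

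**Figure D4:**
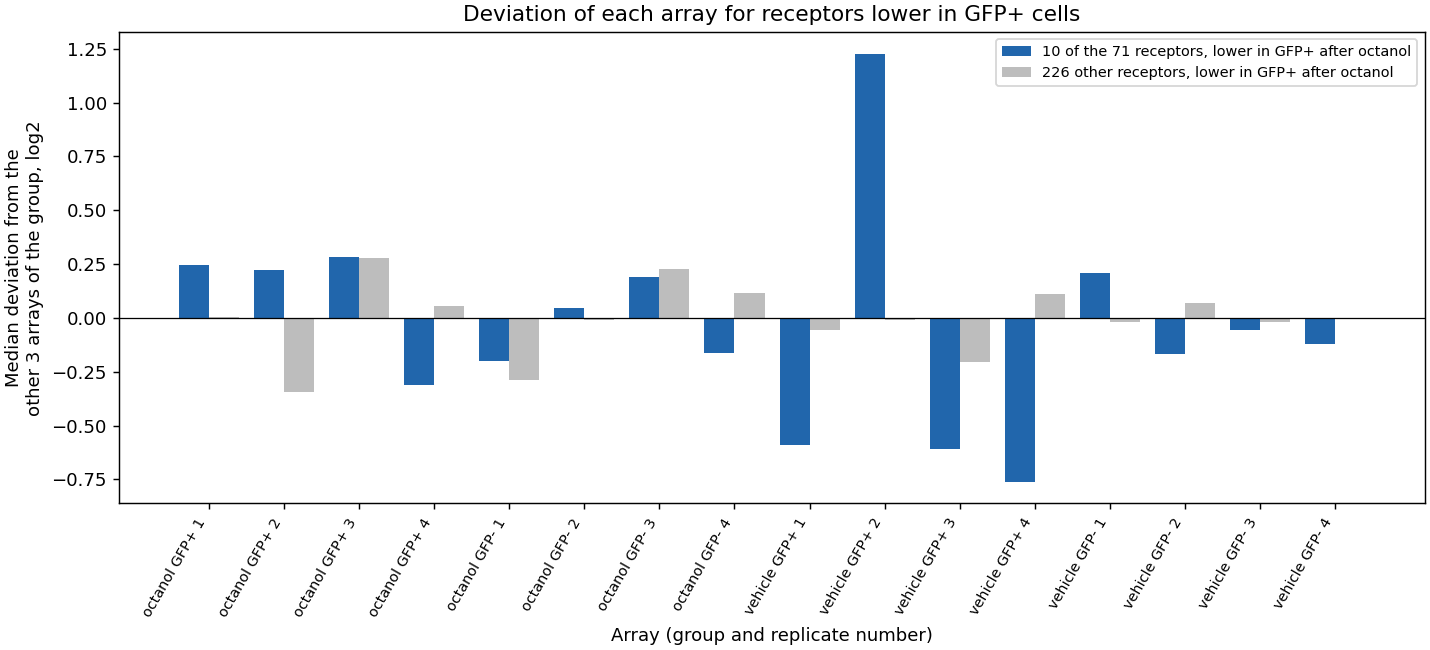
Median deviation (log2) of each array from the mean of the other 3 arrays of its group, over the 10 of the 71 receptors called lower in GFP+ after octanol (blue) and the 226 other receptors called lower (grey). Vehicle GFP+ 2 reaches 1.23 for the 10 receptors and -0.01 for the other 226.

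The family with the most members, MOR185, was divided. Of its 8 receptors, 4 were higher, 3 lower and 1 not called after octanol, and 3 were higher, 4 lower and 1 not called after vehicle, with medians of -0.02 and -0.08. The lower ones lie side by side. Olfr1039 differed by -2.86 ± 0.46 after octanol and -3.28 ± 0.46 after vehicle, and Olfr1040 by -1.43 ± 0.29 and -1.31 ± 0.29. The signals of Olfr1040 were under background on all 8 octanol arrays and on 7 of the 8 vehicle arrays, so its level is uncertain in both fractions. Olfr1042 differed by -3.30 ± 0.68 and -3.51 ± 0.68.

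Olfr1043, the next in order, had 9.29, 10.45, 7.19 and 7.89 in octanol GFP+, against 11.30, 11.03, 11.59 and 11.36 in octanol GFP-. It had 8.28, 11.80, 6.39 and 7.43 in vehicle GFP+, against 11.51, 10.76, 11.80 and 11.65 in vehicle GFP-. The GFP+ arrays scattered widely, and pool 2 was the highest in both exposures. Its difference of -2.62 ± 0.91 after octanol was not called (limma adjusted p = 0.0548) and that of -2.95 ± 0.91 after vehicle was (limma adjusted p = 0.0364), and without vehicle pool 2 it was called after both (limma adjusted p = 0.00730 after octanol and 0.00112 after vehicle). The call after vehicle was lost without any 1 of the other 3 vehicle pools (limma adjusted p = 0.104 without pool 1, 0.155 without pool 3 and 0.130 without pool 4).

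Directly beyond it, Olfr1044 and Olfr1045 of the same family went the other way. Olfr1044 had 11.64, 11.48, 11.61 and 11.27 in octanol GFP+, against 8.79, 9.46, 8.84 and 9.20 in octanol GFP-, and it was higher by 2.43 ± 0.17. In vehicle GFP+ it had 11.09, 11.12, 11.58 and 11.30, against 9.91, 9.22, 9.93 and 9.66 in vehicle GFP-, and it was higher by 1.59 ± 0.17. No array of 1 fraction overlapped the other. The remaining MOR185 receptors, farther along, were Olfr1057 (2.29 ± 0.24 after octanol, 2.06 ± 0.24 after vehicle) and Olfr1062, called after octanol (1.40 ± 0.39) and not after vehicle (1.15 ± 0.39, limma adjusted p = 0.0530).

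In the other families with 4 or more receptors, higher calls were the more frequent. All 6 of MOR203, which opens the region, were higher after octanol and 4 of 6 after vehicle, from Olfr994 (2.28 ± 0.17 and 1.88 ± 0.17) to Olfr987 (0.56 ± 0.11 and 0.41 ± 0.11). The call of Olfr987 after vehicle was lost without vehicle pool 1, 2 or 4 (limma adjusted p = 0.0715, 0.0624 and 0.0695). In MOR213, 5 of 6 were higher after both, and the exception was Olfr1014 (-0.62 ± 0.34 and -0.95 ± 0.34, not called). MOR179 had 4 of 4 higher after octanol and 3 of 4 after vehicle. MOR187 had 4 of 5 higher after both, and the fifth, Olfr1053, stayed under background on all 16 arrays.

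The MOR188 receptors were those with the fewest calls among these 8 families. Of 5, only Olfr1054 was called, higher by 1.92 ± 0.42 after octanol and by 1.38 ± 0.42 after vehicle, the second call being lost without vehicle pool 1, 3 or 4 (limma adjusted p = 0.130, 0.0581 and 0.112). Its family member Olfr1090 had 9.24, 8.78, 9.41 and 9.37 in octanol GFP+, against 9.70, 10.10, 9.71 and 9.35 in octanol GFP-, a difference of -0.52 ± 0.26 that was not called. MOR175 held 3 higher and 1 lower of 5 after octanol and 2 higher and 1 lower after vehicle, from Olfr1009 (2.49 ± 0.15 after octanol, 2.35 ± 0.15 after vehicle) to Olfr1002 at the low end. MOR196 held 2 higher and 1 lower of 4 after both, with Olfr1022 (1.80 ± 0.21 and 1.74 ± 0.21) at the high end and Olfr1030 at the low end. Of the 14 families with 2 or more receptors here, 5 held calls in both directions after octanol and 5 after vehicle. These were not all the same families, as MOR189 held both directions only after octanol and MOR190 only after vehicle.

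**Figure D5:**
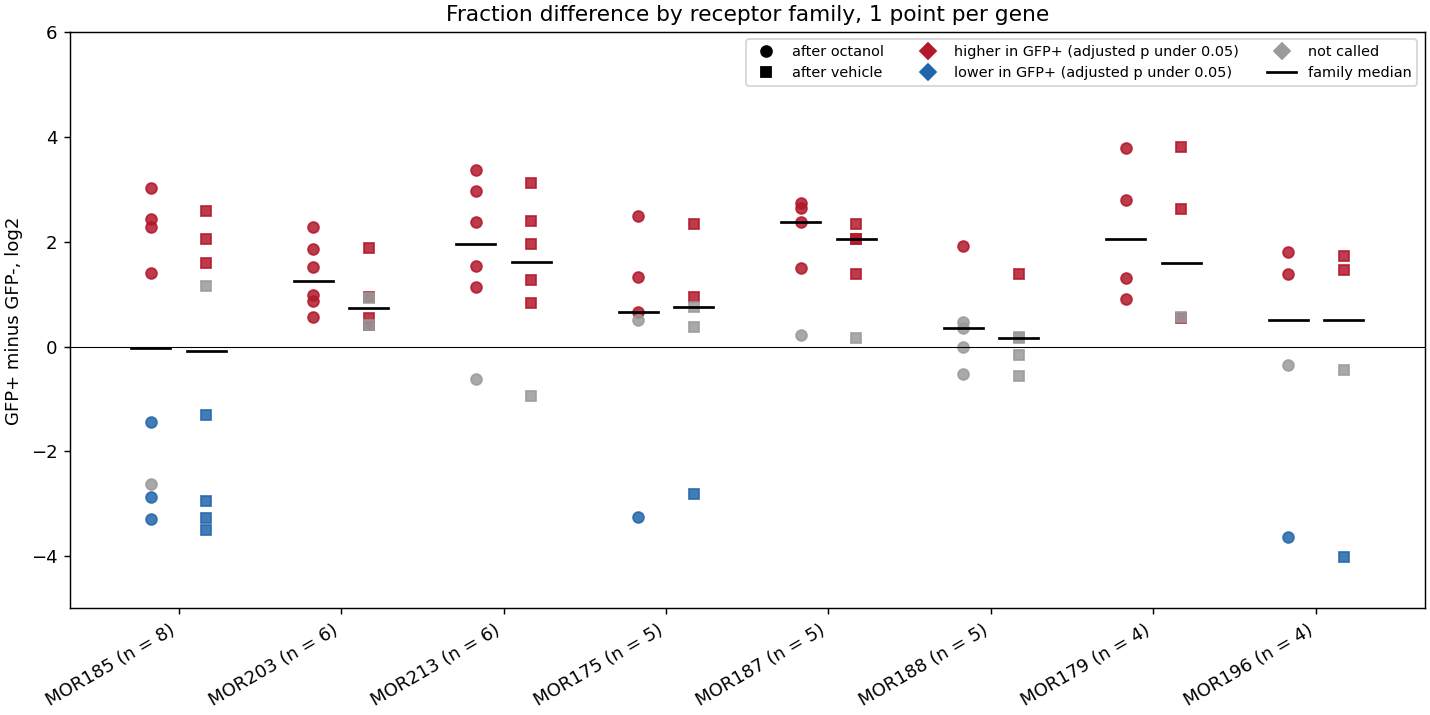
GFP+ minus GFP- difference (log2) of each receptor in the 8 families with 4 or more of the 71, after octanol (circles) and after vehicle (squares); colour gives the limma call and black bars the family medians. MOR185 spreads from -3.30 (Olfr1042) to 3.03 (Olfr1045) after octanol, and the 6 MOR203 receptors lie between 0.56 and 2.28.

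Some receptors called in opposite directions lay next to each other. Whether such neighbours were more or less frequent than the numbers of calls alone would give was not tested. Between the 71 in order there are 70 neighbour pairs, where unmeasured genes can lie between neighbours. After octanol 35 pairs shared a call in 1 direction and 10 pairs were called in opposite directions, 3 of them within a family, which are Olfr1000 and Olfr1002, Olfr1076 and Olfr1079, and Olfr1098 and Olfr1099. In each of these 3 pairs 1 call was lost in fits that left out 1 octanol pool. Olfr1000 lost its call without pool 1, 2 or 4 (limma adjusted p = 0.064, 0.0815 and 0.0554). Olfr1076 lost its call without pool 2 or 4, and Olfr1098 without pool 1 or 2. After vehicle 28 pairs shared a call and 10 were opposite, 2 within a family. The longest run of higher receptors after octanol was of 7, from Olfr987 to Olfr996, and after vehicle of 6, from Olfr1079 to Olfr1086. The longest run of lower receptors was of 3 after octanol, Olfr1039 to Olfr1042, and of 4 after vehicle, Olfr1039 to Olfr1043.

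At the far end lie the 3 MOR206 receptors. Olfr1099, the last of the range, had 13.42, 12.99, 12.68 and 12.90 in octanol GFP+, against 10.03, 10.94, 9.54 and 10.10 in octanol GFP-, and was higher by 2.85 ± 0.19. Its neighbour Olfr1098 had 9.33, 9.88, 9.57 and 9.50 in octanol GFP+, against 10.35, 11.05, 10.11 and 10.12 in octanol GFP-, and was lower (-0.83 ± 0.23 after octanol, -1.27 ± 0.23 after vehicle), with the call after octanol lost without octanol pool 1 or 2 (limma adjusted p = 0.0913 and 0.0892). Olfr1097 was not called (-0.47 ± 0.30 and -0.68 ± 0.30). At Olfr1018 and Olfr1019 a similar break was seen, with Olfr1016 higher by 1.54 ± 0.13 after octanol on one side and Olfr1020 by 0.84 ± 0.17 on the other, and Olfr1018 (MOR260) lower (-1.06 ± 0.20 after octanol, -1.11 ± 0.20 after vehicle).

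Of the 10 receptors whose mean was not above background, 5 were still called after octanol and 4 after vehicle, so their differences lie in a range where signal is least certain. They are Olfr993, Olfr1023, Olfr1024, Olfr1040, Olfr1053, Olfr1058, Olfr1061, Olfr1066, Olfr1089 and Olfr1095. Olfr993 had 6.84, 7.12, 6.63 and 6.95 in octanol GFP+, against 4.99, 5.08, 4.99 and 5.02 in octanol GFP-, so all its octanol GFP- arrays were under background. Olfr1058 was called lower after vehicle alone (-1.29 ± 0.33, limma adjusted p = 0.0164) and had no vehicle array above background, and it lost the call without vehicle pool 1, 2 or 4 (limma adjusted p = 0.0648, 0.0655 and 0.0771). Olfr1076, above background in part of the arrays, was called lower after octanol (-0.99 ± 0.25, limma adjusted p = 0.0160, and 0.0716 or 0.0744 without octanol pool 2 or 4) and not after vehicle (-0.60 ± 0.25, limma adjusted p = 0.106).

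Of the 21 genes of receptor expression and odour signalling that were measured (the transduction proteins Gnal, Adcy3, Cnga2 and Ano2, the receptor transporters Rtp1 and Rtp2 and the regulators Lhx2, Emx2 and the Ebf genes among them), 8 were higher in GFP+ and 0 lower after octanol (38.1% higher, against 16.7% of all genes), and 4 were higher and 0 lower after vehicle (19.05%, against 14.7% of all genes). Their median difference was 0.25 after octanol and 0.19 after vehicle. The largest of these differences were 0.52 after octanol and 0.54 after vehicle.

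Octanol against vehicle asks which receptors respond to this odour, and no receptor of the 71 was called for it. The change of the GFP+ to GFP- difference with octanol was positive for 62 of 71 (87.3%), with a median of 0.27, against 71.4% of the other receptors with a median of 0.16 and 55.5% of all genes with a median of 0.03. The limma test called 0 of the 71 (smallest adjusted p = 0.999), where 0.0% of all genes were called, and 9 had an unadjusted p under 0.05, against 65 of the 1020 other receptors and 886 of the 19505 genes. Where each array was centred on the other receptors the median was 0.10. The 95% interval of the change had a median width of 0.67 to either side, lay within 1 log2 unit of 0 for 30 of the 71, and was widest for Olfr1043 (-2.54 to 3.22).

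The receptors with the smallest unadjusted p for this change were Olfr1044 (0.84 ± 0.24), Olfr1086 (0.76 ± 0.23) and Olfr993 (0.92 ± 0.28), followed by Olfr1013 (0.57 ± 0.21) and Olfr992 (0.45 ± 0.17), and none of the 5 passed the adjustment (limma adjusted p = 0.999 for each). Olfr1086 (MOR179) had 9.68, 9.71, 9.31 and 9.51 in octanol GFP+, against 9.16, 9.67, 8.53 and 9.06 in vehicle GFP+. It had 7.92, 8.76, 8.03 and 8.30 in octanol GFP-, against 9.01, 9.27, 7.92 and 8.04 in vehicle GFP-. The exposures overlapped in both fractions.

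Within GFP+ cells, octanol against vehicle gave 0 calls among the 71 by limma, where 0.0% of all genes were called, and 2 had an unadjusted p under 0.05, against 40 of the 1020 other receptors and 727 of the 19505 genes. The median difference was 0.09, and it was -0.01 without octanol GFP+ pool 1. The 4 octanol arrays did not overlap the 4 vehicle arrays for 1 of the 71, against 2.21% of all genes. That receptor was Olfr1002, with 6.47, 5.95, 5.63 and 6.20 in octanol GFP+, against 6.55, 7.11, 7.55 and 6.48 in vehicle GFP+ (difference -0.86 ± 0.26, limma adjusted p = 0.9996). Of these, 3 octanol arrays were under background and the 4 vehicle arrays were above it. The other smallest unadjusted p were those of Olfr1024 (0.56 ± 0.19), Olfr1086 (0.45 ± 0.22), Olfr1045 (0.39 ± 0.20) and Olfr1066 (0.23 ± 0.12). The signals of Olfr1024 and Olfr1066 were under background on all 16 arrays. The 95% interval lay within 1 log2 unit of 0 for 54 of the 71.

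Within GFP- cells, octanol against vehicle also gave 0 calls among the 71 by limma (smallest adjusted p = 0.982), where 0.0% of all genes were called, and 8 had an unadjusted p under 0.05, each of them with a negative difference, against 111 of the 1020 other receptors and 894 of the 19505 genes. The median difference was -0.14, that of the other receptors -0.16 and that of all genes -0.02, and it was 0.02 where arrays were centred on the other receptors. The exposures did not overlap for 3 of the 71 (Olfr1000, Olfr1028 and Olfr1085, each with a negative difference), against 2.57% of all genes. Olfr1085 (MOR191) had 7.91, 8.52, 8.03 and 7.68 in octanol GFP-, against 8.67, 8.93, 8.59 and 8.75 in vehicle GFP- (difference -0.70 ± 0.18, limma adjusted p = 0.982). In octanol GFP+ it had 9.85, 9.40, 9.71 and 10.04, against 9.63, 9.94, 9.72 and 9.92 in vehicle GFP+, and there the groups overlapped. The unadjusted p was next smallest for Olfr1013 (-0.70 ± 0.21), Olfr1000 (-0.71 ± 0.21), Olfr1044 (-0.61 ± 0.20) and Olfr1028 (-0.69 ± 0.23). The 95% interval lay within 1 log2 unit of 0 for 56 of the 71, and a shift of that size is not excluded in the others.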

How the data were processed

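RNA of sorted cells was measured on 16 Clariom S arrays. The authors made the deposited log2 values with Affymetrix Expression Console, per the submitters' processing notes. Its version is not given in the sources used. The values ran from 2.22 to 18.70 and were taken without further scaling (array medians 7.42 to 7.70). From 28846 probe sets, 6640 controls and those without exactly 1 gene symbol were left out, and 19505 genes remained, each with its probe set of highest mean. Protein sequences were not analysed here, and upstream windows were read for 16 of the 71.

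Differences come from limma 3.58.1 under R 4.3.3 (2-sided moderated tests), with the pool as a block for GFP+ against GFP- and for the octanol change of it (16 arrays), and without a block for octanol against vehicle (8 arrays of a fraction). That fractions of 1 number share mice is inferred from 24 mice in pools of 3. Deviations from group means correlated at 0.08 to 0.22 between the fractions of a pool, above 0.1 in 6 of 8, and at 0.06 to 0.33 between different mice sharing a number, so the correlations do not establish the pairing. Upstream windows were aligned globally (match 1, mismatch -1, gap opening -2, gap extension -0.5).

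The members and all lists were chosen with earlier results of these data known. Receptors are named by a rule: up to 12 of largest difference in each direction after each exposure, among those called with the same sign in all 4 pools, the 5 of smallest p for octanol, the 8 of highest and of lowest mean, neighbours with opposite calls, and the ends of each family of 4 or more. Others were chosen after their values were seen. The number of arrays limits the precision.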

Additional observations from a re-analysis of the deposited data

Results flagged for a closer look

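Among the 208 groups of 4 arrays of the 52 receptors named by the rule, 9 held an array whose gap to the nearest other was large for the group's range by Dixon's 95% criterion, where chance gives about 1 in 20 groups, or 10.4. Olfr1046 stood at 10.88 in vehicle GFP+ pool 2, where the other 3 arrays lay between 7.75 and 8.10, and Olfr1000 at 10.87 in the same array, where the others lay between 9.40 and 9.48. Olfr993 stood at 4.53 in vehicle GFP+ pool 3, with the others at 6.86 to 7.19. Olfr1012 stood at 12.62 in octanol GFP+ pool 1, at 7.98 in octanol GFP- pool 2 and at 12.05 in vehicle GFP+ pool 4. Olfr1013 stood at 11.34 in vehicle GFP+ pool 4, Olfr1009 at 9.72 in octanol GFP- pool 4 and Olfr1030 at 13.30 in octanol GFP- pool 3. Of these values 5 lie in vehicle GFP+ arrays and 0 in vehicle GFP- arrays.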

How the results depend on the processing

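Over the alternatives run (other scalings, a background filter, another variance model, the mean of probe sets, other treatments of the pool, and each pool or array left out), the receptors called numbered 50 to 63 after octanol, with 57 as reported, and 45 to 62 after vehicle, with 51 as reported. No named receptor that was called changed direction in these fits. Only another scaling, or leaving out a pool of the same exposure, can change a difference between the fractions. The other alternatives leave it as it was, so they could not change a direction. Without the replicate block, 46 were higher and 10 lower after octanol, and 38 higher and 10 lower after vehicle; with the replicate number as a replicate block for octanol against vehicle, 0 were called in GFP+ and 0 in GFP- cells. Whether the numbers pair the exposures is not given, so that block is a check only. Centred on the other receptors, the median difference of the 71 was 1.08 after octanol and 0.81 after vehicle, and centred on each array's median it was 1.65 and 1.28. These centrings put the median of all genes after octanol at -0.16 and 0.41, against 0.14 as reported, and all genes were then called 772 higher and 4186 lower, or 11401 higher and 2028 lower, against 3257 and 2569 as reported; after vehicle 1177 were higher and 2940 lower, or 12759 and 1986, against 2871 and 2631. Of the named receptors, 36 of 45 called after octanol and 33 of 42 called after vehicle were called in every alternative that tested them. Olfr1040, counted among both, was left out by the background filter and so was not tested in that run. Calls lost in some were those of Olfr987, Olfr988, Olfr1000, Olfr1019, Olfr1023, Olfr1024, Olfr1076, Olfr1095 and Olfr1098 after octanol, and of Olfr987, Olfr992, Olfr993, Olfr1019, Olfr1023, Olfr1043, Olfr1054, Olfr1058 and Olfr1086 after vehicle. Octanol gave 0 calls among the 71 in every alternative of the 3 octanol comparisons. The cause of these shifts was not tested.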
